A study of Mus musculus with 12 samples.

Results

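Described here are 10 genes of antigen presentation to T cells, the MHC class II and costimulation genes H2-Aa, H2-Ab1, H2-Eb1, Cd74, Ciita, H2-DMa, H2-DMb1, Cd80, Cd86 and Cd40. They were taken by gene symbol from the 24421 genes listed for each library, and all 10 were found in all 12 libraries. RNA-seq was done on mouse bone marrow macrophages (BMMs), the precursors of osteoclasts, in 6 conditions with 2 replicates each. The loss of function experiment compared WT mice, genotype Mir182+/+LysMcre(+), with Mir182ΔM/ΔM mice, genotype Mir182flox/floxLysMcre(+), each without RANKL (basal) and after 5 days of RANKL, the cytokine that drives osteoclast differentiation. The gain of function experiment compared basal Control BMMs, genotype LysMcre(+), with basal Mir182mTg BMMs, genotype LSL-Mir182LysMcre(+), in which Cre releases a Mir182 transgene. All mice were labelled C57BL/6, all carried the LysMcre allele, and all marrow was grown for 3 days with M-CSF, the growth factor of macrophages. Cre was driven by the lysozyme M promoter, so deletion or transgene expression was directed to myeloid cells. The study's methods describe gender- and age-matched littermates without a stated age for these cultures, and do not say whether animals were pooled.

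MHC class II molecules are heterodimers of an alpha and a beta chain that show peptides from endosomes to CD4+ T cells. H2-Aa and H2-Ab1 encode the chains of I-A, and H2-Eb1 encodes the beta chain of I-E, whose alpha chain is not made in C57BL/6 mice. Cd74 encodes the invariant chain that fills the groove of new class II molecules, and H2-DMa and H2-DMb1 encode the chains of H2-DM, which exchanges the invariant chain fragment for antigenic peptides. Ciita encodes the coactivator that sets the transcription of these genes through proteins bound to the X and Y boxes of their promoters. CD80 and CD86 bind CD28 and CTLA-4 on T cells, and CD40 is the receptor of the T cell ligand CD40L. Macrophages keep class II low until stimulated, classically by interferon-gamma, which induces Ciita.

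On GRCm38, 5 of the 10 genes stood within 197134 bases of the MHC, chr17:34119541-34316674, in the order H2-DMa, H2-DMb1, H2-Ab1, H2-Aa and H2-Eb1. Ciita lay at chr16:10480059-10528418, Cd86 at chr16:36603869-36666081, Cd80 at chr16:38455561-38496335 and Cd40 at chr2:165055627-165072948, and Cd74 lay on none of these chromosomes. RefSeq promoter windows of GRCm38.p6, the 250 bases before the transcription start, were held for 5 of the 10 genes, namely H2-Aa, H2-Eb1, H2-DMa, H2-DMb1 and Cd80. The CCAAT of a Y box has the reverse complement ATTGG. The windows of H2-Aa, H2-Eb1 and H2-DMb1 held the letters GNAACT, as in an X box, followed within 45 bases by ATTGG. This pair was chosen after these windows had been read, it was searched on both strands, and 1.76% of 32851 windows of the same length held it. The spacing between both letter groups was 27 bases in H2-Aa, 26 in H2-Eb1 and 27 in H2-DMb1. The 2 windows held for H2-DMa and the window of Cd80 held no such pair. These windows began after the first annotated base of their genes, so other starts of H2-DMa and Cd80 were not read. The sequences are shown because these genes share the pair. They were called lower in Mir182ΔM/ΔM than in WT after RANKL, as were the other class II genes of the group and 30.9% of all genes tested. H2-Aa, H2-Eb1 and H2-DMb1 did not move alike in the Mir182ΔM/ΔM response below. H2-DMa, without the pair in its windows, was also called lower after RANKL (log2 difference -1.65), and a part of the pair was not tested. The printed stretches are from RefSeq, 5′ to 3′ on the strand of the gene. Capitals mark the X-like letters, with the A before them in H2-Eb1, and the reverse complement of the Y box core.
H2-Aa, minus strand, chr17:34287855-34287916: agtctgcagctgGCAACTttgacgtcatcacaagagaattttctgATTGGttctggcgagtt
H2-Eb1, plus strand, chr17:34305764-34305824: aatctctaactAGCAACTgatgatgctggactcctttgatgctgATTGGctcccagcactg
H2-DMb1, plus strand, X-like letters alone, chr17:34153085-34153114: gaggtttacctaGTAACTgatgatgctagg

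The deleted microRNA is shown for its seed, bases 2 to 8, here in capitals (RefSeq, chr6:30165962-30165986, minus strand).
mmu-miR-182-5p: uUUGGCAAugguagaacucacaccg
Matches to this seed, TTGCCAA or TGCCAAA, were searched in every annotated 3′ UTR. They were found in 1 of the 10 genes, Ciita, and in 20.3% of the 21824 genes with an annotated 3′ UTR. The longest Ciita 3′ UTR, of 2679 bases, held TGCCAAA at chr16:10527532-10527538, and the 3′ UTR of a shorter Ciita transcript held TTGCCAA followed by A at chr16:10491424-10491430. The libraries were counted per gene, so these transcripts were not told apart.
Ciita, long 3′ UTR: ctgtctggaaaTGCCAAAaaatgtctctc
Ciita, short transcript: ttgattttgttTTGCCAAaggccatatag

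Between 24951280 and 33050619 reads were counted on genes per library, so that 3 reads, taken as the lower limit of a readable level, were 0.0908 to 0.120 CPM (reads scaled to the total of each library). All 10 genes were above this limit in all 12 libraries. Csf1r, the M-CSF receptor, was at 1444 to 2832 CPM, and the B cell gene Pax5 and the T cell gene Cd3e were at 0.04 CPM or less in every library. Other B cell markers were detected. The 5 B cell markers found summed to 3.12 to 7.25 CPM per library, and the 5 T cell markers to 0.151 to 0.895 CPM. In some genes outside this group the WT RANKL libraries were unlike the other loss of function libraries. Lyz2, the lysozyme M gene, was at 4117 and 4288 CPM in WT RANKL and at 22.5 to 44.0 CPM in the other 6 loss of function libraries, while Control and Mir182mTg had 5783 to 7062 CPM. Ifi202b, an interferon-inducible gene, was at 1.12 and 0.97 CPM in WT RANKL, at 82.1 to 152 CPM in the other 6, and at 0.09 CPM or less in the gain of function libraries. Reads on the Mir182 gene were at 0 in the loss of function libraries except for 0.04 CPM in Mir182ΔM/ΔM basal replicate 1, so its deletion could not be checked here. The sources used here do not say whether the WT basal and WT RANKL cultures came from the same mice. In WT cells, a response to RANKL cannot be told apart from another difference between WT basal and WT RANKL libraries, such as other mice or another genetic background. In Lyz2 and Ifi202b, WT RANKL lay nearer to Control and Mir182mTg, which carry the same label C57BL/6. Which libraries, if any, depart from this label was not tested, and every WT RANKL value below carries this limit. Every comparison below that includes WT RANKL rests on the WT RANKL libraries. Those without WT RANKL were also fitted without these libraries.

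**Figure D1:**
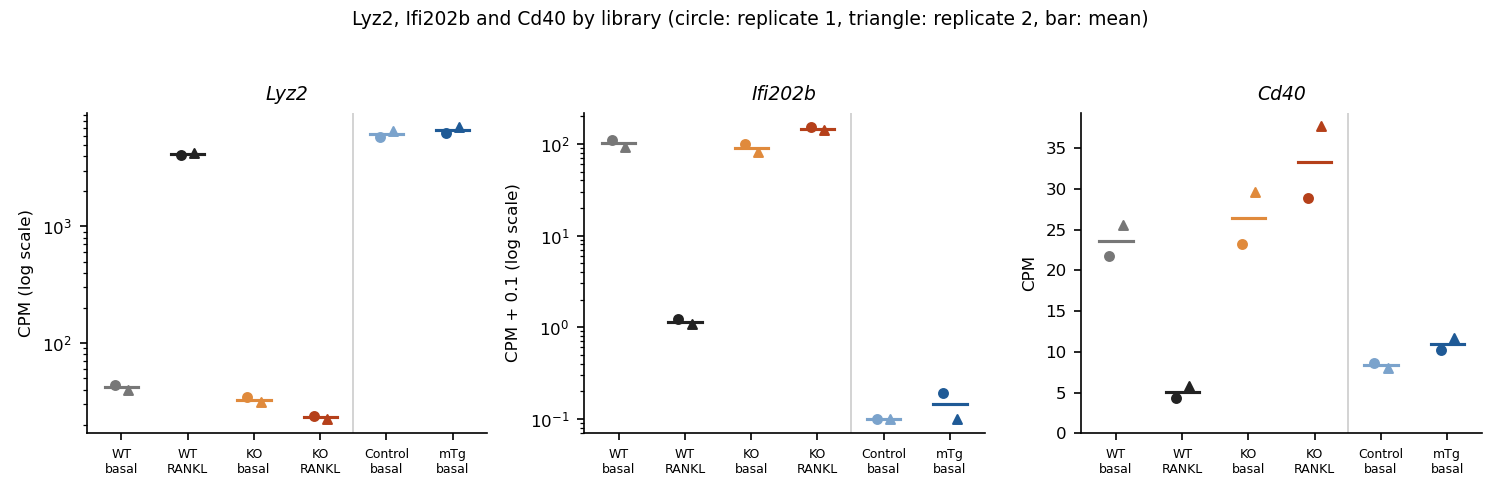
Levels of Lyz2 (CPM, log axis), Ifi202b (CPM + 0.1, log axis) and Cd40 (CPM, linear axis) in the 12 libraries by condition, with circles for replicate 1, triangles for replicate 2 and bars for the mean of 2. Both WT RANKL libraries sit with Control and Mir182mTg in Lyz2 and Cd40 and away from the other 6 loss of function libraries, and Cd40 is at 4.31 to 11.7 CPM in these 6 libraries and at 21.8 to 37.7 CPM in the others.

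The first comparison asked how RANKL changed these genes in WT cells. Of the 10 genes, 9 were higher and 1 was lower after RANKL, and the replicates of both groups did not overlap for any of them. Of all genes tested, 51% did not overlap and were higher, and 28.6% did not overlap and were lower. Ciita rose 6.85-fold in mean CPM and Cd74 4.86-fold, the chain genes H2-Aa, H2-Ab1 and H2-Eb1 rose 3.26-fold to 3.74-fold, and Cd40 fell to 0.215 of its basal mean. All differences were tested with limma on log2(CPM + 1), and a gene was called at an adjusted p under 0.05 over 11691 genes. Among all genes tested, 40.6% were called higher and 22% lower, so most genes moved in this comparison. The median log2 fold change was 1.47 over the 10 genes and 0.19 over all genes tested. In bulk RNA, fewer cells of a type and less RNA per cell cannot be told apart.

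H2-Aa was at 21.5 and 23.6 CPM in WT basal and at 72.7 and 83.0 CPM in WT RANKL, a log2 fold change of 1.74 ± 0.11 (SE, n = 2 per group, limma adjusted p = 1.28e-05). H2-Ab1 was at 13.2 and 14.6 CPM in basal cells and at 49.9 and 53.9 CPM after RANKL (log2 fold change 1.83 ± 0.09, limma adjusted p = 2.86e-06). H2-Eb1 was at 12.2 and 16.2 CPM in basal cells and at 40.8 and 52.0 CPM after RANKL (1.64 ± 0.18, limma adjusted p = 0.000195). The 3 chain genes thus rose by similar factors. Cd74 was at 64.8 and 67.4 CPM in basal cells and at 318 and 325 CPM after RANKL (2.26 ± 0.06, limma adjusted p = 2.47e-07). Ciita was at 2.90 and 2.85 CPM in basal cells and at 18.4 and 20.9 CPM after RANKL (2.41 ± 0.11, limma adjusted p = 2.81e-06). Both WT RANKL libraries were above all other 10 libraries for the chain genes, Cd74 and Ciita.

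The peptide exchange genes rose less than the chain genes. H2-DMb1 was at 19.9 and 19.5 CPM in WT basal and at 37.3 and 33.4 CPM in WT RANKL (0.81 ± 0.09, limma adjusted p = 0.000195). H2-DMa was at 14.6 and 15.5 CPM in basal cells and at 19.4 and 21.4 CPM after RANKL (0.42 ± 0.13, limma adjusted p = 0.027). The H2-DMa call depended on the scaling, and with TMM factors its log2 fold change was 0.22 with a limma adjusted p of 0.194. It was also lost without WT basal replicate 1 (adjusted p = 0.108), WT basal replicate 2 (adjusted p = 0.0603) or WT RANKL replicate 2 (adjusted p = 0.128). H2-DMb1 has a near copy, H2-DMb2, and how reads shared by both were assigned is not given in the sources used here.

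The costimulatory genes split. Cd80 was at 9.42 and 7.33 CPM in WT basal and at 17.96 and 17.42 CPM in WT RANKL (1.004 ± 0.12, limma adjusted p = 0.000252). Cd86 was at 5.93 and 4.81 CPM in basal cells and at 14.3 and 14.8 CPM after RANKL (1.29 ± 0.11, limma adjusted p = 4.74e-05). Both ligands of CD28 thus rose. Cd40 was at 21.8 and 25.5 CPM in basal cells and at 4.31 and 5.87 CPM after RANKL (-2.03 ± 0.19, limma adjusted p = 8.47e-05). Its WT RANKL libraries were the lowest of all 12. Beside this, Control BMMs of the other experiment, without RANKL, had 8.68 and 8.01 CPM of Cd40, and their levels were set side by side without a test.

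**Figure D2:**
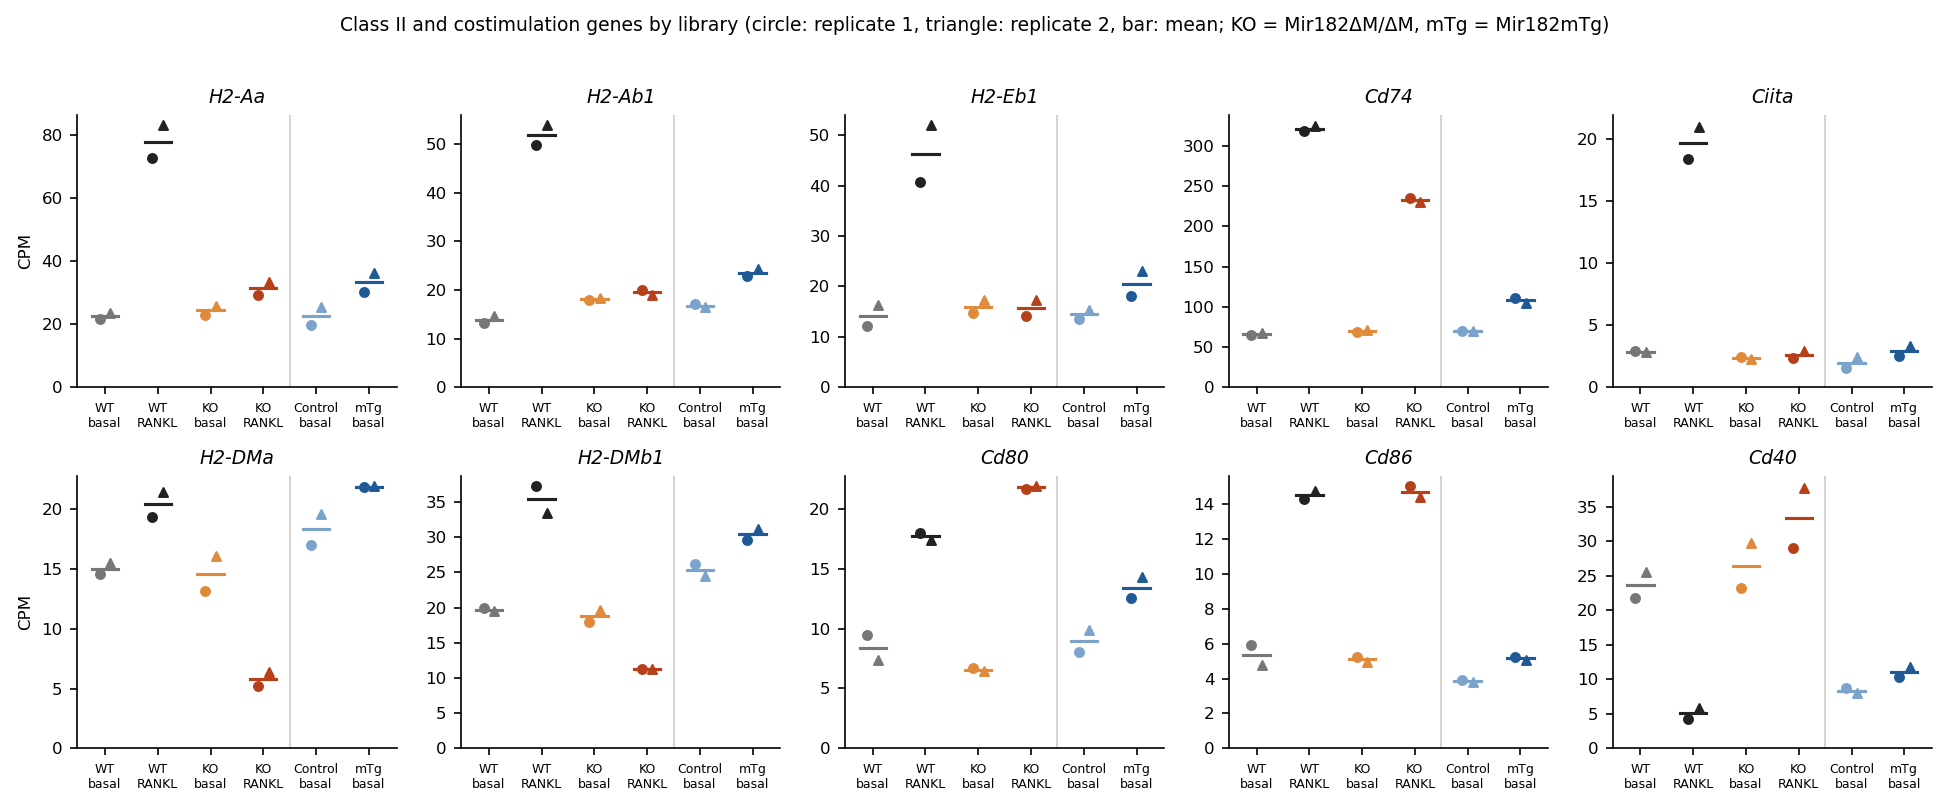
CPM of each of the 10 genes in the 12 libraries by condition (KO is Mir182ΔM/ΔM, mTg is Mir182mTg), with circles for replicate 1, triangles for replicate 2 and bars for the mean of 2, on linear axes from 0. The 5 panels of the upper row rise in WT RANKL, where Cd74 is at 318 and 325 CPM, and of these Cd74 alone also reaches over 200 CPM in Mir182ΔM/ΔM RANKL.

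Levels of different genes were compared per kilobase of gene length. On this scale, in WT basal cells, Cd74 led with 46.7 ± 1.26 CPM per kilobase (SD, n = 2), followed by H2-Aa (21.1 ± 1.35), H2-DMb1 (15.3 ± 0.23), Cd40 (13.3 ± 1.49), H2-Ab1 (11.6 ± 0.84), H2-DMa (9.07 ± 0.41), H2-Eb1 (8.53 ± 1.70), Cd80 (4.93 ± 0.87), Cd86 (2.12 ± 0.31) and Ciita (0.48 ± 0.01). The neighbours Cd40 and H2-Ab1, and H2-DMa and H2-Eb1, lay within their spread of each other. In WT RANKL cells Cd74 was at 227 ± 3.34 CPM per kilobase, H2-Aa at 72.8 ± 6.80, H2-Ab1 at 43.5 ± 2.39 and H2-Eb1 at 27.8 ± 4.74, beside H2-DMb1 at 27.5 ± 2.16, from which H2-Eb1 did not differ beyond the spread. H2-DMa was at 12.3 ± 0.89, Cd80 at 10.4 ± 0.22, Cd86 at 5.73 ± 0.14, Ciita at 3.28 ± 0.30 and Cd40 at 2.85 ± 0.62, where Ciita and Cd40 lay within their spread. In Mir182ΔM/ΔM RANKL cells the order after Cd74 (164 ± 3.04) and H2-Aa (29.3 ± 2.88) was Cd40 (18.7 ± 3.47), H2-Ab1 (16.4 ± 0.63), Cd80 (12.8 ± 0.11), H2-Eb1 (9.41 ± 1.37), H2-DMb1 (8.76 ± 0.05), Cd86 (5.80 ± 0.18), H2-DMa (3.51 ± 0.48) and Ciita (0.44 ± 0.06). There Cd40 and H2-Ab1, and H2-Eb1 and H2-DMb1, lay within their spread. Cd40 was thus among the higher genes in Mir182ΔM/ΔM RANKL cells and among the lowest in WT RANKL cells.

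The scale used mattered for counts over all genes. The CPM held no correction for RNA composition, and the median gene moved by 0.19 in WT RANKL against WT basal, by -0.14 in Mir182ΔM/ΔM against WT after RANKL and by -0.15 in the interaction, all in log2. With TMM factors (trimmed mean of M-values, a scaling that centres most genes) these medians were -0.00436, -0.00365 and 0.00528. The share of called genes that were higher then went from 64.8% to 48.6%, from 31.6% to 50.8% and from 30.3% to 49.3%. With TMM factors 8 genes of this group were called higher and 1 lower in WT, against 9 and 1 without them, and the number called lower after RANKL in Mir182ΔM/ΔM against WT was 7 on both scales.

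The second comparison was the response to RANKL in Mir182ΔM/ΔM cells. Calls within the group went both ways, as they did over all genes tested. Cd74, Cd80, Cd86 and H2-Aa were called higher, H2-DMa and H2-DMb1 were called lower, and Ciita, H2-Ab1, H2-Eb1 and Cd40 were not called. Over all genes tested, 30.4% were called higher and 26.4% lower. The median log2 fold change was 0.22 over the 10 genes and 0.05 over all genes. The counts of 4 higher and 2 lower were the same when both WT RANKL libraries were left out.

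Ciita was at 2.44 and 2.28 CPM in Mir182ΔM/ΔM basal and at 2.36 and 2.91 CPM after RANKL (0.11 ± 0.11, limma adjusted p = 0.434). The groups overlapped. H2-Ab1 went from 18.02 and 18.36 CPM to 20.1 and 19.0 CPM (0.10 ± 0.09, limma adjusted p = 0.36), and H2-Eb1 from 14.7 and 17.4 CPM to 14.1 and 17.3 CPM (-0.03 ± 0.18, limma adjusted p = 0.899). H2-Aa rose from 22.8 and 25.9 CPM to 29.1 and 33.5 CPM (0.35 ± 0.11, limma adjusted p = 0.032). This call was lost with TMM factors (limma adjusted p = 0.0509), without Mir182ΔM/ΔM basal replicate 1 (adjusted p = 0.165) and without Mir182ΔM/ΔM RANKL replicate 2 (adjusted p = 0.168).

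Cd74, in contrast, was at 68.6 and 70.9 CPM in Mir182ΔM/ΔM basal and at 236 and 229.7 CPM after RANKL, 3.34-fold higher in mean CPM (1.72 ± 0.06, limma adjusted p = 8.9e-07). Ciita, at 61 to 74 reads in these libraries, was not called, and a link between Cd74 and Ciita was not tested. H2-DMa fell from 13.1 and 16.1 CPM to 5.26 and 6.37 CPM (-1.19 ± 0.13, limma adjusted p = 0.000221), and H2-DMb1 from 17.98 and 19.70 CPM to 11.2 and 11.3 CPM (-0.69 ± 0.09, limma adjusted p = 0.000507). The H2-DM levels after RANKL were the lowest of all 12 libraries for both genes. Cd80 rose from 6.70 and 6.42 CPM to 21.7 and 21.9 CPM (1.59 ± 0.12, limma adjusted p = 2.94e-05), the highest of all 12 libraries. Cd86 rose from 5.25 and 4.96 CPM to 15.0 and 14.4 CPM (1.36 ± 0.11, limma adjusted p = 4.36e-05). Cd40 was at 23.2 and 29.7 CPM in basal cells and at 28.9 and 37.7 CPM after RANKL (0.32 ± 0.19, limma adjusted p = 0.191). The Cd40 groups overlapped, but the ratio was 1.25 within replicate 1 and 1.27 within replicate 2, and once the replicate number entered the fit as a block Cd40 was called higher (limma adjusted p = 0.000443, with 42.7% of all genes called higher in that fit).

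**Figure D3:**
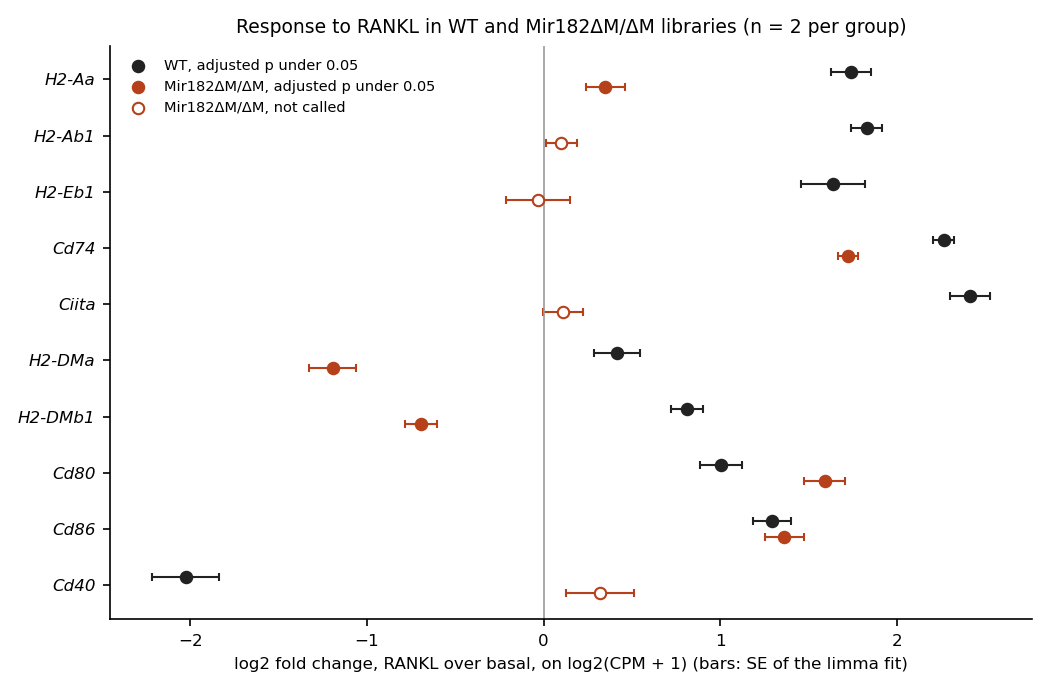
Log2 fold change of RANKL over basal on log2(CPM + 1) for each gene (x axis), in black for WT and in red for Mir182ΔM/ΔM, with bars for the SE of the limma fit and n = 2 per group, filled where the adjusted p was under 0.05. The pairs of points lie together for Cd86, at 1.29 and 1.36, and far apart for Ciita, at 2.41 and 0.11, and for Cd40, at -2.03 and 0.32.

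The third comparison set the genotypes against each other after RANKL. Relative to WT, 7 genes were lower in Mir182ΔM/ΔM, namely Ciita, H2-Aa, H2-Ab1, H2-Eb1, Cd74, H2-DMa and H2-DMb1, which are all the class II genes of the group. Cd40 was higher, and Cd80 and Cd86 were not called. Among all genes tested, 30.9% were called lower and 14.3% higher, and the median was -1.32 over the 10 genes and -0.14 over all genes. Ciita had the largest difference of the class II genes. Its mean was 19.7 ± 1.77 CPM (SD, n = 2) in WT RANKL and 2.64 ± 0.39 CPM in Mir182ΔM/ΔM RANKL, 7.46-fold higher in WT (-2.51 ± 0.11 SE, limma adjusted p = 7.6e-06). H2-DMa was 3.51-fold higher in WT (-1.65 ± 0.13, limma adjusted p = 7.91e-05) and H2-DMb1 3.14-fold (-1.57 ± 0.09, limma adjusted p = 1.78e-05). For the chain genes WT was 2.49-fold higher in H2-Aa (-1.29 ± 0.11), 2.65-fold in H2-Ab1 (-1.36 ± 0.09) and 2.95-fold in H2-Eb1 (-1.50 ± 0.18), with limma adjusted p-values of 0.000125, 2.91e-05 and 0.000577. Cd74 differed least, 1.38-fold higher in WT (-0.46 ± 0.06, limma adjusted p = 0.000671).

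The 7 class II genes were higher in WT within replicate 1 and within replicate 2, with ratios from 1.35 to 7.80 in replicate 1 and from 1.41 to 7.19 in replicate 2. Cd40 was 6.55-fold higher in Mir182ΔM/ΔM than in WT after RANKL, with ratios of 6.71 and 6.43 within the replicates (2.49 ± 0.19, limma adjusted p = 6.57e-05). Cd86 differed by 0.02 ± 0.11, and its groups overlapped (limma adjusted p = 0.915). Cd80 was 1.23-fold higher in Mir182ΔM/ΔM without overlap (0.29 ± 0.12, limma adjusted p = 0.0857). Cd80 was called higher with the replicate block (limma adjusted p = 0.00796, with 23.4% of all genes called higher in that fit) and with TMM factors (adjusted p = 0.0214).

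The difference between both responses was tested by the interaction of genotype and RANKL. It was called for 9 of the 10 genes, with a change to lower values in Mir182ΔM/ΔM relative to WT for 7 and to higher values for 2, where 17.1% and 7.44% of all genes tested were called in these directions. The median was -1.45 over the 10 genes and -0.15 over all genes. Ciita had an interaction of -2.30 ± 0.16 (limma adjusted p = 0.00014), and the chain genes had -1.39 ± 0.16 for H2-Aa, -1.73 ± 0.12 for H2-Ab1 and -1.67 ± 0.26 for H2-Eb1. For H2-DMa it was -1.61 ± 0.19 and for H2-DMb1 -1.51 ± 0.13, genes that were called higher in WT and lower in Mir182ΔM/ΔM. Cd74 had the smallest called difference of the class II genes, -0.54 ± 0.08 (limma adjusted p = 0.00336). Cd40 had an interaction of 2.35 ± 0.27 (limma adjusted p = 0.00101), with a fall in WT and no called change in Mir182ΔM/ΔM. The interaction of Cd80, 0.59 ± 0.17 (limma adjusted p = 0.0402), lost its call in 7 of the 8 fits that left out 1 library, without WT basal replicate 1, either WT RANKL replicate, either Mir182ΔM/ΔM basal replicate or either Mir182ΔM/ΔM RANKL replicate (adjusted p = 0.0845 to 0.114). The interaction of Cd86 was 0.07 ± 0.15 (limma adjusted p = 0.783).

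Markers of other cells were read beside these changes. The 8 dendritic cell markers summed to 7.80 to 7.90 CPM in WT basal and 22.5 to 23.1 CPM in WT RANKL, and to 8.32 to 8.81 CPM in Mir182ΔM/ΔM basal and 21.7 to 22.4 CPM after RANKL. Most of this was Itgax, at 18.6 and 18.9 CPM in WT RANKL and at 19.6 and 20.6 CPM in Mir182ΔM/ΔM RANKL. Only Itgax and Zbtb46 passed the filter, and Zbtb46, at 1.92 and 2.41 CPM in WT RANKL, was called lower in Mir182ΔM/ΔM RANKL, at 1.25 and 1.495 CPM (-0.41, limma adjusted p = 0.0236). Flt3 was at 0.64 and 0.72 CPM in WT RANKL against 0.13 and 0 CPM in Mir182ΔM/ΔM RANKL, and Clec9a at 0.88 and 0.72 CPM against 0.33 and 0.24 CPM, while Xcr1 was at 0.18 CPM or less in every library. The 5 B cell markers read here summed to 6.54 to 6.59 CPM in WT RANKL and 3.12 to 3.23 CPM in Mir182ΔM/ΔM RANKL, nearly all of it Cd22 and Cd79b. The 8 osteoclast markers summed to 9938 to 10274 CPM in WT RANKL and 3070 to 3079 CPM in Mir182ΔM/ΔM RANKL, and 7 of them were called lower in Mir182ΔM/ΔM. The 6 neutrophil markers found summed to 64.1 to 81.0 CPM in the basal libraries of both genotypes, to 13.9 to 15.0 CPM in WT RANKL and to 4.73 to 5.63 CPM in Mir182ΔM/ΔM RANKL, where 5 of them were called lower than in WT. The 6 macrophage markers summed to 5620 to 5690 CPM in WT RANKL and 5885 to 5997 CPM in Mir182ΔM/ΔM RANKL, with 2 higher and 1 lower in Mir182ΔM/ΔM. Over all genes tested, 14.3% were called higher and 30.9% lower in this comparison. Fcgr1 was higher, at 18.5 and 19.8 CPM in WT RANKL and at 148 and 167 CPM in Mir182ΔM/ΔM RANKL (2.97), as was Adgre1 (0.74), and Csf1r was lower. The part of these differences in cell makeup in the class II values was not tested.

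The fourth comparison was Mir182ΔM/ΔM against WT without RANKL. No gene of the group was called, where 2.71% of all genes tested were called higher and 1.1% lower, and at an unadjusted p under 0.05 the limma fit held 2, H2-Ab1 as higher and Cd80 as lower, beside 10.3% of all genes as higher and 5.99% as lower. The log2 differences of the 10 genes ran from -0.30 to 0.37, with a median of 0.02. H2-Ab1 was at 13.2 and 14.6 CPM in WT and at 18.02 and 18.36 CPM in Mir182ΔM/ΔM (0.37 ± 0.09, limma adjusted p = 0.0749), and Cd80 was at 9.42 and 7.33 CPM in WT and 6.70 and 6.42 CPM in Mir182ΔM/ΔM (-0.30 ± 0.12, limma adjusted p = 0.261). With the replicate block H2-Ab1 was called higher (limma adjusted p = 0.000321) and Cd80 lower (limma adjusted p = 0.0146), in a fit that called 18.6% of all genes higher and 12.7% lower. Without the WT RANKL libraries neither was called.

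The fifth comparison was Mir182mTg against Control, both without RANKL. Reads on the Mir182 gene were at 2.39 and 4.40 CPM in Mir182mTg and at 0 in both Control libraries. All 10 genes had higher values in both Mir182mTg libraries than in both Control libraries, as had 18% of all genes tested, with mean CPM 1.20-fold to 1.55-fold higher and log2 fold changes from 0.25 to 0.62. The median was 0.49 over the 10 genes and -0.00158 over all 12081 genes tested. None was called by the edgeR quasi-likelihood test, which called 0.0993% of all genes higher and 0.157% lower. At an unadjusted p under 0.05 the same test held 8 of the 10 as higher, against 3.89% of all genes, and DESeq2 called 1, Cd74, against 0.387% of all genes called higher. With the replicate number as a block, 9 of the 10 were called higher, all but Ciita (edgeR adjusted p = 0.0542), in a fit that called 6.94% of all genes higher.

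Cd74 was at 69.4 and 70.4 CPM in Control and at 112 and 105 CPM in Mir182mTg (0.62 ± 0.08, edgeR adjusted p = 0.0758, with the block 1.98e-08). H2-Aa was at 19.8 and 25.5 CPM in Control and at 30.2 and 36.3 CPM in Mir182mTg (0.54 ± 0.16, edgeR adjusted p = 0.5). H2-Ab1 was at 17.1 and 16.4 CPM against 22.9 and 24.2 CPM (0.48 ± 0.09, edgeR adjusted p = 0.201), and H2-Eb1 at 13.6 and 15.4 CPM against 18.1 and 23.0 CPM (0.49 ± 0.15, edgeR adjusted p = 0.518). The groups did not overlap for any of these. Ciita was at 1.53 and 2.42 CPM in Control and at 2.48 and 3.33 CPM in Mir182mTg (0.55 ± 0.29, edgeR adjusted p = 0.902). H2-DMa went from 17.1 and 19.6 CPM to 21.9 and 21.9 CPM and H2-DMb1 from 26.2 and 24.5 CPM to 29.6 and 31.2 CPM. Cd80 went from 8.01 and 9.90 CPM to 12.5 and 14.3 CPM, Cd86 from 3.93 and 3.78 CPM to 5.26 and 5.08 CPM, and Cd40 from 8.68 and 8.01 CPM to 10.3 and 11.7 CPM. Fits that left out 1 library held a lone sample in a group, which was assumed to vary like the others. Over these fits the log2 fold change ran from 0.37 to 0.74 for H2-Aa, from 0.58 to 0.67 for Cd74 and from 0.42 to 0.74 for Cd80. The neutrophil markers were also higher in the same comparison. The 6 of them found summed to 41.7 to 43.3 CPM in Control and 82.6 to 85.5 CPM in Mir182mTg, none was called, and their part in the values of the 10 genes was not tested.

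**Figure D4:**
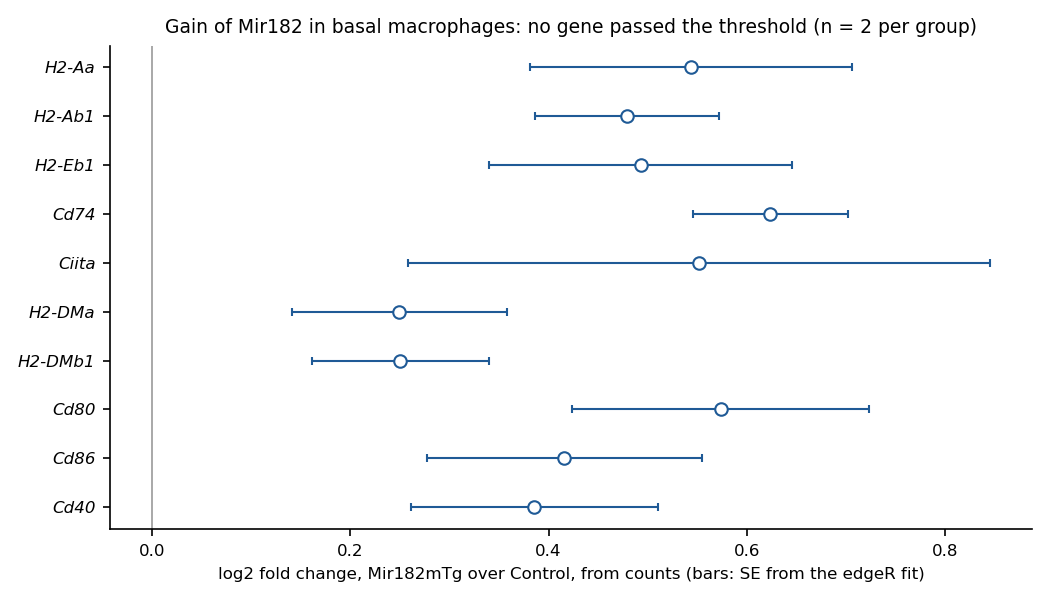
Log2 fold change of Mir182mTg over Control for each of the 10 genes (x axis), from the edgeR fit of counts, n = 2 per group, with bars for the SE. All 10 points lie between 0.25 and 0.62, and none was called without the replicate block.

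The other class II genes were hardly detected. H2-Ea-ps, the inactive alpha chain gene of I-E in this strain, had 0 reads in all 12 libraries, which allows a level of up to 0.0908 to 0.120 CPM. H2-Eb2 was at 0.14 CPM or less, H2-DMb2 at 1.02 CPM or less, and H2-Oa at 0.76 CPM or less. H2-Ob, a subunit of the H2-DM inhibitor H2-O, was at 0.83 and 0.68 CPM in WT basal and at 0.24 and 0.14 CPM in WT RANKL. None of these 5 genes passed the filter of 1 CPM in at least 2 of the 8 loss of function libraries.

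The genes that act before the class II promoters were read from fixed lists. Of the 7 promoter factors, RFX subunits, NF-Y subunits and Creb1, 3 were higher and 1 lower in WT after RANKL, 2 higher and 1 lower in Mir182ΔM/ΔM, and none had a called interaction. The shares over all genes tested were 40.6% higher and 22% lower in WT, and 30.4% and 26.4% in Mir182ΔM/ΔM. After RANKL, the RFX subunit genes were lower in Mir182ΔM/ΔM, by -0.46 for Rfx5, -0.40 for Rfxank and -0.34 for Rfxap, all in log2 and beside a median of -0.14 over all genes. The NF-Y subunit genes were not called, with 0.08 for Nfya, 0.11 for Nfyb and -0.27 for Nfyc, and Creb1 was at -0.35. Rfx5 itself was at 38.9 and 33.1 CPM in WT RANKL and at 28.3 and 23.6 CPM in Mir182ΔM/ΔM RANKL. The differences of all 7 were smaller in size than that of Ciita, -2.51.

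Of 7 genes of interferon-gamma signaling read here, 1 was higher and 2 were lower in Mir182ΔM/ΔM than in WT after RANKL. The shares over all genes tested were 14.3% higher and 30.9% lower. Irf1, a transcription factor that acts on the Ciita promoter, was at 68.3 and 74.3 CPM in WT and at 105 and 114 CPM in Mir182ΔM/ΔM (0.61, limma adjusted p = 0.000981). It was thus higher where Ciita was lower. Irf8, a macrophage transcription factor, was at 62.4 and 59.7 CPM in WT RANKL and at 33.5 and 34.9 CPM in Mir182ΔM/ΔM RANKL (-0.82, limma adjusted p = 7.74e-05). Jak1 was also lower (-0.23, close to the median gene), and Ifngr1 (-0.09), Ifngr2 (0.03), Jak2 (0.03) and Socs1 (0.41) were not called. In response to RANKL, Irf1 was not called in WT (0.02, limma adjusted p = 0.836) and rose in Mir182ΔM/ΔM (0.65, limma adjusted p = 0.000484), from 68.5 and 70.5 CPM. None of these 7 genes and none of the 7 promoter factors was called in Mir182mTg against Control by edgeR.

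**Figure D5:**
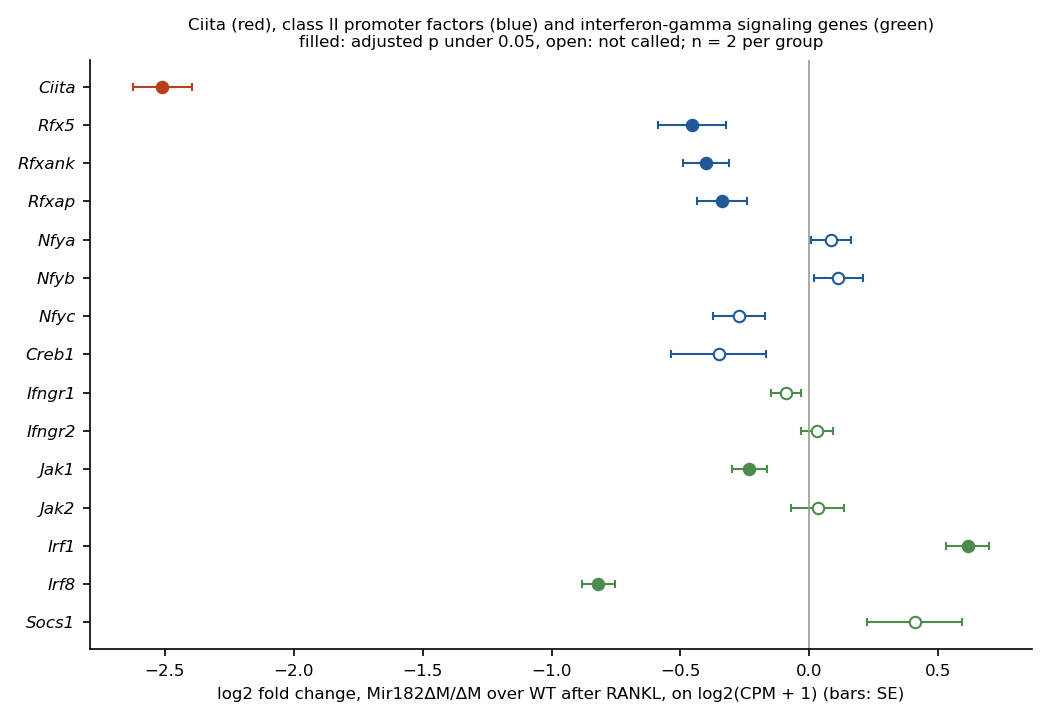
Log2 fold change of Mir182ΔM/ΔM over WT after RANKL on log2(CPM + 1) (x axis) for Ciita in red, 7 class II promoter factors in blue and 7 genes of interferon-gamma signaling in green, with bars for the SE of the limma fit, n = 2 per group, and filled points where the adjusted p was under 0.05. Ciita lies at -2.51 and Irf1 at 0.61, and the RFX subunit genes lie between -0.46 and -0.34.

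Class I presentation genes, which load peptides for CD8+ T cells, gave the nearest comparison. Of 10 such genes, 4 were higher and 2 lower in WT after RANKL, near the shares over all genes of 40.6% and 22%. All 10 were higher in Mir182ΔM/ΔM after RANKL, where 30.4% of all genes were called higher. After RANKL 8 of these class I genes were higher and 1, Tap2, was lower in Mir182ΔM/ΔM than in WT, with a median of 1.09. Of the class II and costimulation genes 1 was higher and 7 were lower, with a median of -1.32. Over all genes tested, 14.3% were called higher and 30.9% lower. H2-K1, a class I heavy chain gene, was at 704 and 797 CPM in WT RANKL and at 1684 and 1852 CPM in Mir182ΔM/ΔM RANKL (1.24, limma adjusted p = 0.000143). Nlrc5, the class I counterpart of Ciita, was at 36.6 and 41.2 CPM in WT RANKL and at 155 and 191 CPM in Mir182ΔM/ΔM RANKL (2.12, limma adjusted p = 2.53e-05). Ciita and Nlrc5, coactivators of the same protein family, thus differed in opposite directions between the genotypes.

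Antigen processing genes of the class II route moved apart from the class II genes. Of 8 found, 6 were higher and 1 lower in Mir182ΔM/ΔM than in WT after RANKL, against 14.3% and 30.9% of all genes tested. The 1 lower was Ifi30, the thiol reductase that opens disulfide bonds of antigens, at 1078 and 929.6 CPM in WT RANKL and at 531 and 455 CPM in Mir182ΔM/ΔM RANKL (-1.02, limma adjusted p = 0.00068). Ctss, the protease that trims the invariant chain in macrophages, was at 1752 and 1565 CPM in WT RANKL and at 2740 and 2624 CPM in Mir182ΔM/ΔM RANKL (0.69, limma adjusted p = 0.000812).

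Other costimulatory and coinhibitory ligands were mixed as Cd80, Cd86 and Cd40 were. Of 14 listed, 13 were tested, and Cd70 had 0 reads in all 12 libraries. In WT 6 rose after RANKL (Cd274, Pdcd1lg2, Cd276, Tnfsf4, Icam1 and Cd200) and 5 fell (Icosl, Tnfsf9, Vsir, listed under an older name, Cd48 and Lgals9). In Mir182ΔM/ΔM 7 rose, the same 6 and Tnfrsf14, and 4 fell, Icosl, Tnfsf9, Vsir and Cd48. The shares over all genes tested were 40.6% higher and 22% lower in WT, and 30.4% and 26.4% in Mir182ΔM/ΔM. After RANKL 2 of the 13 were higher and 7 lower in Mir182ΔM/ΔM than in WT, with a median of -0.33, against 14.3% and 30.9% of all genes. None of 12 tested was called in Mir182mTg against Control by edgeR.

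Cd274, the PD-L1 gene, was at 100.5 and 94.8 CPM in WT RANKL and at 80.0 and 74.9 CPM in Mir182ΔM/ΔM RANKL, from 19.8 to 23.5 CPM in the basal libraries of both genotypes (-0.33 between genotypes after RANKL, limma adjusted p = 0.00945). Cd276, the B7-H3 gene, was at 32.5 and 27.9 CPM in WT RANKL and at 3.38 and 3.03 CPM in Mir182ΔM/ΔM RANKL (-2.89, limma adjusted p = 8.41e-06). In Cd276 the Control libraries, without RANKL, had 25.2 and 22.9 CPM and the WT basal libraries 1.99 and 1.68 CPM. In this gene, as in Lyz2 and Cd40, WT RANKL lay with the gain of function libraries. Cd200, the ligand of an inhibitory receptor, was at 61.9 and 58.4 CPM in WT RANKL and at 7.46 and 7.16 CPM in Mir182ΔM/ΔM RANKL (-2.88, limma adjusted p = 3.68e-05). In Cd200 and Pdcd1lg2, WT RANKL did not lie with Control. Their means were 60.2 and 3.47 CPM in WT RANKL and 1.14 and 0.03 CPM in Control. Pdcd1lg2 (-1.39), Vsir (-1.23), Tnfsf4 (-0.57) and Cd48 (-0.33) were also lower in Mir182ΔM/ΔM.

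The 2 higher ligands were Lgals9, which encodes galectin-9, and the adhesion molecule gene Icam1. Lgals9 was at 79.0 and 77.9 CPM in WT RANKL and at 340.5 and 329 CPM in Mir182ΔM/ΔM RANKL (2.08, limma adjusted p = 9.07e-07), from 250.4 and 244 CPM in WT basal, so like Cd40 it fell in WT and was not called for RANKL in Mir182ΔM/ΔM (0.09). Icam1 was at 202 and 192 CPM in WT RANKL and at 291 and 274 CPM in Mir182ΔM/ΔM RANKL (0.52, limma adjusted p = 0.000561). Icosl, the ICOS ligand gene, fell to 4.31 and 4.50 CPM in WT and to 4.50 and 4.72 CPM in Mir182ΔM/ΔM, from 29.4 to 33.7 CPM (interaction 0.12, SE 0.14, limma adjusted p = 0.568). Tnfsf9 (0.04), Tnfrsf14 (0.14) and Pvr (0.13) were not called between genotypes after RANKL.

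The genes that carry the signal of CD40 inside the cell, which RANK and other TNF receptors also use, were read beside Cd40. In WT all 8 of them rose after RANKL while Cd40 fell, and in Mir182ΔM/ΔM 6 rose and 1, Traf6, fell. Of all genes tested, 40.6% were called higher in WT, and 30.4% higher and 26.4% lower in Mir182ΔM/ΔM. Traf1 was at 3.94 and 3.57 CPM in WT basal and at 229.7 and 254 CPM in WT RANKL, and at 253 and 282 CPM in Mir182ΔM/ΔM RANKL (0.14 between genotypes, limma adjusted p = 0.257). After RANKL 1 of the 8, Traf3, was higher in Mir182ΔM/ΔM (0.40), and 3 were lower, Traf5 (-1.55), Traf6 (-0.67) and Nfkb2 (-0.25). The shares over all genes tested were 14.3% higher and 30.9% lower.

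The genes whose pattern was most like that of 3 patterns of the group were taken by Pearson's correlation over the 12 libraries among 5413 genes, as a description, since libraries of 1 condition share their state. With the mean of the class II chain genes and Cd74 the closest were Sdha (r = 0.974), Tmem25 (0.974), Amacr (0.973), Cyb561 (0.972) and Lhfp (0.971). Ciita had r = 0.919 with this mean, H2-DMb1 0.415 and H2-DMa 0.135. Sdha, a subunit of succinate dehydrogenase, was at 642 and 678 CPM in WT RANKL and at 309.8 to 408 CPM in the other 10 libraries. Closest to Cd40 were Gdf3 (0.981), Folr2 (0.978), Fcgr4 (0.968), Oas1c (0.967) and 2610203C22Rik (0.956). Folr2, a folate receptor of macrophages, was at 34.2 and 42.8 CPM in WT RANKL and at 292 and 332 CPM in Mir182ΔM/ΔM RANKL. Closest to Cd86 were Plcb2 (0.994), Pik3r5 (0.987), Gstt1 (0.987), Nfkbie (0.986) and Myof (0.985). Plcb2, a phospholipase C, was at 144 and 139.9 CPM in WT RANKL and at 141 and 139.8 CPM in Mir182ΔM/ΔM RANKL.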

How the data were processed

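RNA-seq was done on 12 libraries of mouse BMMs, 6 conditions with 2 biological replicates. Reads were aligned to mm10 by the authors. The submitters' processing notes name TopHat and Cufflinks for replicate 1 and HISAT2, HTSeq and edgeR for replicate 2, without versions. The labels give polyA RNA for replicate 1 and total RNA for replicate 2, while the study's methods describe poly-A selection. Rn45s, the ribosomal RNA precursor gene, was at 742 to 1176 CPM in replicate 1 and at 9778 to 21273 CPM in replicate 2. Batch and replicate number thus coincide, and each comparison holds 1 sample per group within a batch. For the loss of function experiment the authors deposited CPM per gene, scaled to the total of each library, and 100% of these values were whole reads (tolerance 0.01 read). For the gain of function experiment the authors deposited raw read counts per gene. The deposited replicate 1 tables also held RPKM, from which gene lengths alone were derived. Each library listed 24421 genes, 27 of them under names turned into dates, which were kept in totals and fits but not named. Reads on genes ran from 24951280 to 33050619, and depth limits and replicate spreads cover counting error and these samples only.

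CPM were tested as log2(CPM + 1) with limma 3.58.1 in 1 fit of the 4 loss of function groups, for the 11691 genes that reached 1 CPM in 2 or more of the 8 samples. A fold change on this scale understates the change of low genes such as Ciita. Counts were tested with edgeR 4.0.16, the quasi-likelihood test with TMM factors (12081 genes), the SE being the absolute log2 fold change over the square root of F. P-values were two-sided and adjusted by Benjamini-Hochberg over all genes tested, with a call at an adjusted p under 0.05. Replicate numbers mark shared processing: the deviations of same-numbered samples correlated with r = 0.690 to 0.754 over 6 pairs in the first experiment and 0.745 in the second (11776 genes). The main fits did not include the replicate number, so differences shared by same-numbered samples stayed in their spread. The fit with the replicate number as a block was an alternative. Other alternatives were pseudocount 0.1, other filters, TMM and quantile scaling, edgeR and DESeq2 1.42.0 on recovered reads, fits of the compared samples alone, fits without both WT RANKL libraries, and leaving out each library. All ran in R 4.3.3 after the scripts were tested on simulated data. The 10 genes were named throughout, as were other class II genes, promoter factors, interferon-gamma signaling genes and other ligands, genes of the remaining lists where they stand beside a result, and 5 like genes per pattern. Some genes of the lists are not reported here, and list counts and sums leave them out. The genes and lists were chosen with earlier results of these data known. Gene positions and 3′ UTRs were from GENCODE vM21 and promoters and the microRNA from RefSeq.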

Additional observations from a re-analysis of the deposited data

Results flagged for a closer look

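For 9 of the 10 genes the response to RANKL differed between WT and Mir182ΔM/ΔM cells by the interaction of genotype and RANKL (limma, adjusted p under 0.05, n = 2 per group). Of all genes tested, 17.1% had a called interaction to lower values and 7.44% to higher values. On the log2 scale the difference of the responses, Mir182ΔM/ΔM minus WT, was -1.39 for H2-Aa, -1.73 for H2-Ab1, -1.67 for H2-Eb1, -0.54 for Cd74, -2.30 for Ciita, -1.61 for H2-DMa and -1.51 for H2-DMb1. The last pair was called higher in WT and lower in Mir182ΔM/ΔM. For H2-DMa the call in WT was lost with TMM factors (0.22, limma adjusted p = 0.194). For Cd80, which rose in both, the difference was 0.59. This call was lost without a filter on low values and in most fits that left out 1 library. For Cd40 the difference was 2.35, a fall in WT against an uncalled change in Mir182ΔM/ΔM. All 9 rest on the WT RANKL libraries, which stood apart in Lyz2 and Ifi202b, and the part of that difference in these values was not tested.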

How the results depend on the processing

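Of the 60 values of the 10 genes over the 6 comparisons, 33 were called, and 3 of these lost the call under some alternative: H2-DMa in WT RANKL, H2-Aa in Mir182ΔM/ΔM RANKL and the interaction of Cd80, given with their values above. Over 1060 alternatives of single values, 999 kept their direction and their side of the threshold, 32 gained a call, 19 lost it and 10 turned sign, the last all among uncalled values when 1 library was left out. Over the fits that left out 1 library these values ran, for H2-Eb1, from -0.17 to 0.11 in the Mir182ΔM/ΔM response (0.087 and 0.11 in the fits that turned it) and from -0.022 to 0.36 in the basal comparison of genotypes. In that comparison H2-DMa ran from -0.18 to 0.092, H2-DMb1 from -0.12 to 0.00086, Cd86 from -0.18 to 0.072 and Cd40 from -0.020 to 0.32. Cd86 ran from -0.013 to 0.046 between genotypes after RANKL, with -0.0066 in the other fit that turned it, and from -0.055 to 0.20 in the interaction. The cause was not tested.

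With the replicate block, alone or with TMM factors or edgeR on recovered reads, the basal comparison of genotypes called 1 of the 10 higher and 1 lower, in place of 0 and 0. Between genotypes after RANKL, 2 were called higher in place of 1 under quantile scaling, TMM factors, the replicate block, edgeR and DESeq2, and 1 to 2 when 1 library was left out. In the interaction 1 was called higher in place of 2 without a filter on low values, and 1 to 2 when 1 library was left out. In Mir182mTg against Control, 1 was called higher by DESeq2, 1 without a filter and 9 with the replicate block, in place of 0, and 0 to 3 when 1 library was left out. Beyond the calls given above, the replicate block changed no other call of the 10 genes.

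Over all genes the replicate block called 2170 higher and 1481 lower in the basal comparison of genotypes, against 317 and 129, and 838 and 984 in Mir182mTg against Control, against 12 and 19. It called 2740 higher and 5815 lower between genotypes after RANKL, against 1668 and 3607, and 1888 and 5001 in the interaction, against 870 and 2005. Counts over all genes moved by over 1.5 times in 57 alternatives. With 2 samples per group the spread is poorly known. Ciita had the lowest CPM of the 10 genes in the 10 libraries other than WT RANKL.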
